A study of Rattus norvegicus with 4 samples.

Results

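TGF-beta and BMP signalling was followed through 44 genes of the m6A peak lists of neonatal rat cardiac fibroblasts. The genes were fixed by symbol: 11 ligands, 13 receptors, co-receptors and a pseudoreceptor, 8 Smads, 2 Smad ubiquitin ligases, 5 extracellular antagonists, 3 nuclear co-repressors, and Bmp1 and Fstl1. Each symbol had an NCBI rat gene ID in the RefSeq table, and 37 of the 44 genes had a peak in at least 1 list, among 8729 genes with a peak in all. In m6A-seq, fragmented RNA is enriched with an antibody to N6-methyladenosine and read beside untreated input RNA, and a peak marks where the enriched fragments pile up above the input. The cells were primary cardiac fibroblasts from hearts of Sprague-Dawley rats at most 3 days old, and were transfected for 48 h with an empty plasmid (Vector, titled Control and labelled WT) or with a plasmid carrying rat FTO cDNA (FTO, labelled FTO overexpression). FTO is a demethylase that removes m6A from RNA. Each group had 1 m6A-IP and 1 input library, and 1 peak list was deposited per group. No difference between the groups therefore has a replicate check, and no p-value is given. How many animals gave the cells was not stated, and both groups went through the transfection.

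TGF-beta family ligands are secreted dimers that bring together type II and type I receptors, which are serine/threonine kinases. The activated type I receptor phosphorylates receptor-activated Smads, namely Smad2 and Smad3 for TGF-beta and activin and Smad1, Smad5 and Smad9 for BMPs, and these join Smad4 and enter the nucleus. In the heart, TGF-beta is the best known signal that turns fibroblasts into matrix-producing myofibroblasts, while Smad6, Smad7, the Smurf ligases and secreted antagonists hold the pathway back.

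The Vector list held 21249 peaks and the FTO list 17796, and the depth of the libraries is unknown. Positions, heights and enrichment were not used here, so the measurements are the number of peaks of a gene and the length of each in bp. The transfected gene, Fto, had 3 Vector peaks and 9 FTO peaks. Of 10 cardiac fibroblast markers, 7 had peaks, 46 in the Vector and 41 in the FTO list, most of them on Col5a1 with 34 and 29. Pdgfra had 7 and 6, Thy1 2 and 1, Lum 1 and 2, Ddr2 0 and 1, and Tcf21 and Pdgfrb 1 in each list, while Vim, Col6a3 and Fap had none in either list. Markers of other cells of the heart also had peaks. The cardiomyocyte list had peaks on 6 of 10 genes, 23 in Vector and 25 in FTO, with none on Actc1, Nppa, Pln and Ttn. The smooth muscle and pericyte list had peaks on 5 of 6 genes, 27 and 25, with none on Rgs5, and the immune list on 6 of 7, 16 and 10, with none on Itgam. A gene without a listed peak may still be expressed, and the part of other cell types in the results was not tested. Methylation per transcript, the amount of the transcript and the number of cells that express it cannot be told apart in a list of peaks.

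The Vector list held 84 peaks on the 44 genes, the FTO list 89. This corresponds to 106.0 FTO peaks per 100 Vector peaks, against 83.7 over all genes. Without Tgfb3 the numbers were 83 and 84. The summed length of the peaks was 53475 bp in Vector and 62948 bp in FTO, or 117.7 per 100, against 93.2 per 100 over all genes. Peaks were more numerous in the FTO list for 15 of the 37 genes with a peak (40.5%, 95% Wilson interval 26.3% to 56.5%), where 21.2% of all genes with a peak had more. They were fewer for 12 genes (32.4%, 19.6% to 48.5%), where 41.4% of all genes had fewer, and as many for 10. The first interval lies above the share of all genes and the second includes it. Among peaks of at least 100 bp, however, 12 of 36 genes had more and 12 had fewer FTO peaks (33.3%, 20.2% to 49.7%), and the interval then includes the 21.0% of all genes with more. At 200 bp it was 10 of 33 with more (30.3%, 17.4% to 47.3%), against 18.6% of all genes, which is also inside. At 300 bp, chosen after seeing the data, it was 10 of 31 (32.3%, 18.6% to 49.9%), against 16.7%, which is below the interval. On the transcript with most peaks it was 15 of 37 (40.5%, 26.3% to 56.5%), against 20.9%, also below the interval. FTO counts were also scaled up by 1.19 to make the lists equally large, with differences under 0.5 peaks taken as none. Then 20 genes had more (54.1%, 38.4% to 69.0%), 9 fewer (24.3%, 13.4% to 40.1%) and 8 as many. Of all genes, 29.8% then had more, which is below the interval, and 36.2% had fewer, which is inside. The scaling itself moved Acvrl1, Bmp1, Eng, Ski and Smurf1 to the genes with more, at scaled differences of 0.582 to 0.970 peaks. These genes had equal numbers of peaks in the lists as reported, so the larger share comes from the scaling. The intervals cover counting error only, and genes are not replicates of the condition. The genes were also chosen with earlier results of these data known, so an interval above or below the background is no test of the set.

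**Figure D1:**
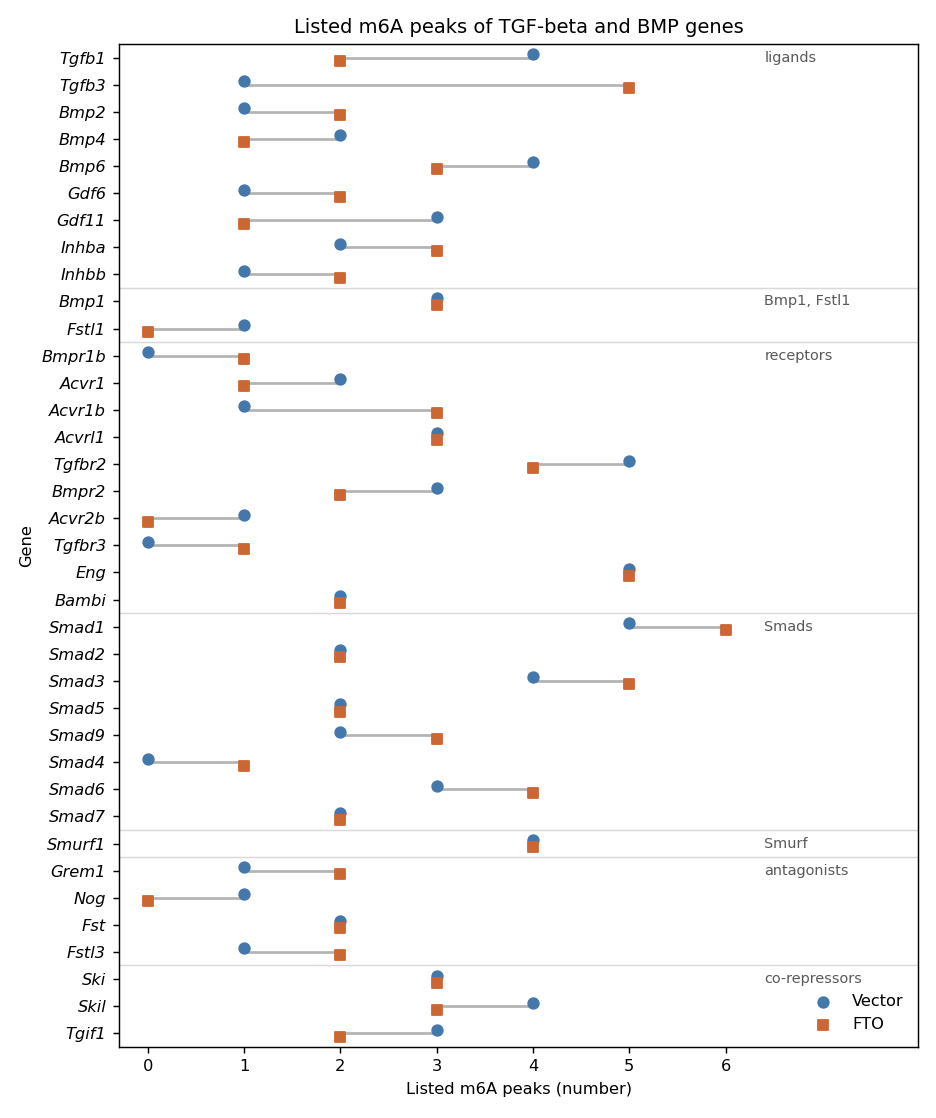
Number of listed m6A peaks (x axis) of each of the 37 genes with a peak (y axis, grouped by role), with a circle for the Vector list and a square for the FTO list, joined by a line. Tgfb3 shows the widest gap, from 1 to 5, and no Smad has its square to the left of its circle.

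**Figure D2:**
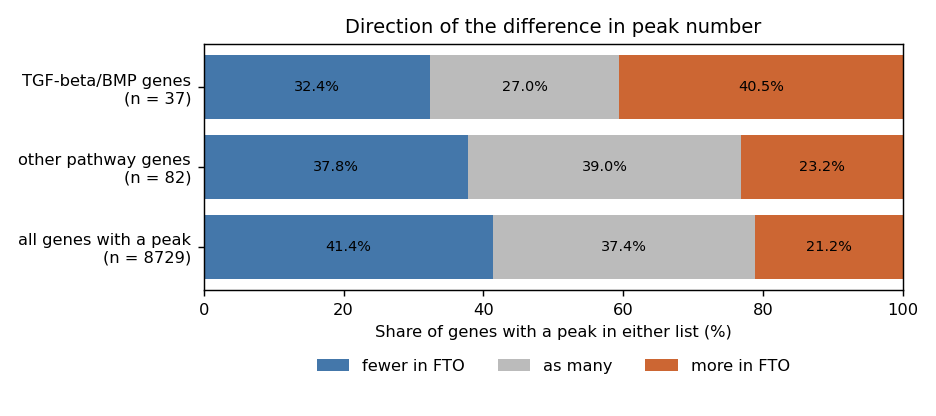
Share of genes with a peak in either list (x axis, %) that had fewer, as many or more peaks in the FTO list, for the TGF-beta and BMP genes, the other genes of the pathway and all genes. The segment for more FTO peaks covers 40.5%, 23.2% and 21.2% in turn.

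Among the ligands, Tgfb1 and Tgfb3 stood on opposite sides. Tgfb1, the main TGF-beta isoform of fibrotic tissue, had 4 Vector peaks of 1180, 161, 118 and 290 bp in the order of their peak numbers. Its 2 FTO peaks were 1180 and 161 bp long, so the peaks of 118 and 290 bp stood in the Vector list alone. Tgfb3, another isoform that uses the same receptors, had 1 Vector peak of 750 bp. In the FTO list the peak of 750 bp came last, after peaks of 1141, 154, 108 and 164 bp, which made 5. A difference of 4 or more FTO peaks was found for 45 of the 8729 genes, or 0.516%. Tgfb3 had the widest gap of the genes followed here, and this share does not allow for that choice. Tgfb2 had no peak in either list.

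The BMP and GDF ligands were also mixed. Bmp2, an inducer of bone and of heart valve formation, had 1 Vector peak of 1315 bp and FTO peaks of 371 and 2473 bp, none of which had an equal length in the other list. Gdf11, a close relative of myostatin, had Vector peaks of 3143, 398 and 353 bp, and the peak of 3143 bp alone was in the FTO list. Bmp4 had 2 and 1 peaks and Bmp6 had 4 and 3, and every FTO peak of these BMPs had a Vector peak of equal length. Gdf6 had 1 and 2 peaks, the longest being 2905 bp in Vector and 2839 bp in FTO. Bmp7 had none. Inhba and Inhbb, which encode the subunits of the activins, had 2 and 3 and 1 and 2 peaks. In all, 9 of the 11 ligands had peaks, and the numbers differed between the lists for each of the 9, with fewer FTO peaks for 4 and more for 5, beside 41.4% and 21.2% of all genes. Together they had 19 Vector and 21 FTO peaks, and without Tgfb3 the FTO list held 2 peaks fewer than the Vector list.

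Differences of 2 peaks or more were found for 4 genes of the 37. Tgfb1 and Gdf11 had 2 fewer, which is 5.41% of the genes, against 14.8% of all genes with at least 2 fewer. Tgfb3 and Acvr1b had at least 2 more, again 5.41%, against 4.72% of all genes. The Wilson intervals of these shares reach up to 17.7% and include both background shares. With peaks under 200 bp left out, the difference was 1 peak for Tgfb3, 0 for Acvr1b, 1 for Tgfb1 in favour of Vector, and still 2 for Gdf11.

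The receptors and co-receptors carried 22 peaks in each list, with fewer FTO peaks for 4 genes, as many for 3 and more for 3. The 3 type II receptors with a peak each had fewer in the FTO list, where 41.4% of all genes had fewer, and among peaks of at least 200 bp the difference was 0 for each of them. Tgfbr2, which binds TGF-beta, had 5 and 4 peaks, and Bmpr2, which binds BMPs, had 3 and 2, with the longest at 1280 bp in both lists. Acvr2b, an activin type II receptor, had a peak of 116 bp in the Vector list alone, and Acvr2a had none. Type I receptors went both ways. Acvr1b, the activin type I receptor, had 1 Vector peak of 3083 bp, and FTO peaks of 121, 125 and 3094 bp. Acvr1, a BMP type I receptor, had 2 and 1 peaks, and its longest was 1175 bp in Vector and 1171 bp in FTO. Bmpr1b had a peak of 325 bp in the FTO list alone. Tgfbr1, the type I receptor for TGF-beta, and Bmpr1a had no peak in either list.

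The receptors that are most familiar from endothelium had the same peaks in both lists. Acvrl1, a type I receptor for BMP9 and BMP10, had 3 peaks between 131 and 1982 bp in each. Eng, or endoglin, its co-receptor, had 5 peaks between 152 and 354 bp in each, with no difference in any length. Of 8 endothelial markers, Flt1 had 7 Vector and 4 FTO peaks and Tek had 0 and 2, and Pecam1, Cdh5, Kdr, Tie1, Vwf and Emcn had none. The part of endothelial cells in the Acvrl1 and Eng peaks was not tested. The TGF-beta co-receptor Tgfbr3, or betaglycan, had a peak of 108 bp in the FTO list alone. Bambi, a pseudoreceptor that lacks the kinase domain, had 2 peaks in each list, of 740 and 404 bp in Vector and of 774 and 393 bp in FTO.

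All 8 Smads had a peak in the FTO list, and 7 had a peak in the Vector list. They carried 20 Vector peaks and 25 FTO peaks. FTO peaks were more for 5 Smads, as many for 3 and fewer for 0, beside 21.2% of all genes with more and 41.4% with fewer. With peaks under 100 bp left out, the Smads had 2 more FTO than Vector peaks, where they had 5 more with all peaks. Only Smad1 and Smad9 then had more, and the difference was 0 for Smad3, Smad4 and Smad6. Of the 20 Vector peaks, 17 had an FTO peak of equal length. Smad3, the main transducer of TGF-beta in fibroblasts, had Vector peaks of 213, 75, 194 and 408 bp. In the FTO list it had peaks of 3681, 51, 75, 194 and 408 bp, so the last 3 lengths were the same, and the start of the series held a peak of 213 bp in Vector and peaks of 3681 and 51 bp in FTO. The longest Smad3 peak was thus 9.02 times longer in the FTO list. Smad1, a BMP Smad, had 5 Vector peaks of 165, 577, 258, 126 and 257 bp. The same 5 lengths followed in the same order in the FTO list, with a peak of 1187 bp after them, and the longest peak was 2.06 times longer.

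The remaining Smads differed less. Smad2, the close relative of Smad3, had peaks of 185 and 288 bp in both lists, on 2 different transcripts. Smad5 had 2 peaks in each list, with a peak of 566 bp shared, and Smad9 had 2 and 3. Smad4, the partner of all receptor-activated Smads, had a peak of 62 bp in the FTO list alone. Of the inhibitory Smads, Smad7 had the same peaks of 2035 and 2131 bp in both lists, and Smad6 had 3 and 4, its 3 Vector lengths being all in the FTO list. The BMP Smads together had 9 Vector and 11 FTO peaks, and Smad2 and Smad3 had 6 and 7.

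Smurf1, a ubiquitin ligase that marks BMP Smads and receptors for degradation, had 4 peaks in each list. The first 3, of 77, 134 and 85 bp, were the same, and the last was 147 bp in Vector and 2992 bp in FTO. These 2 peaks were assigned to different transcripts of Smurf1, and the transcript with most Smurf1 peaks holds neither the peak of 77 bp nor that of 2992 bp. Its longest peak was 20.4 times longer in the FTO list with all transcripts. Smurf2 had no peak.

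**Figure D3:**
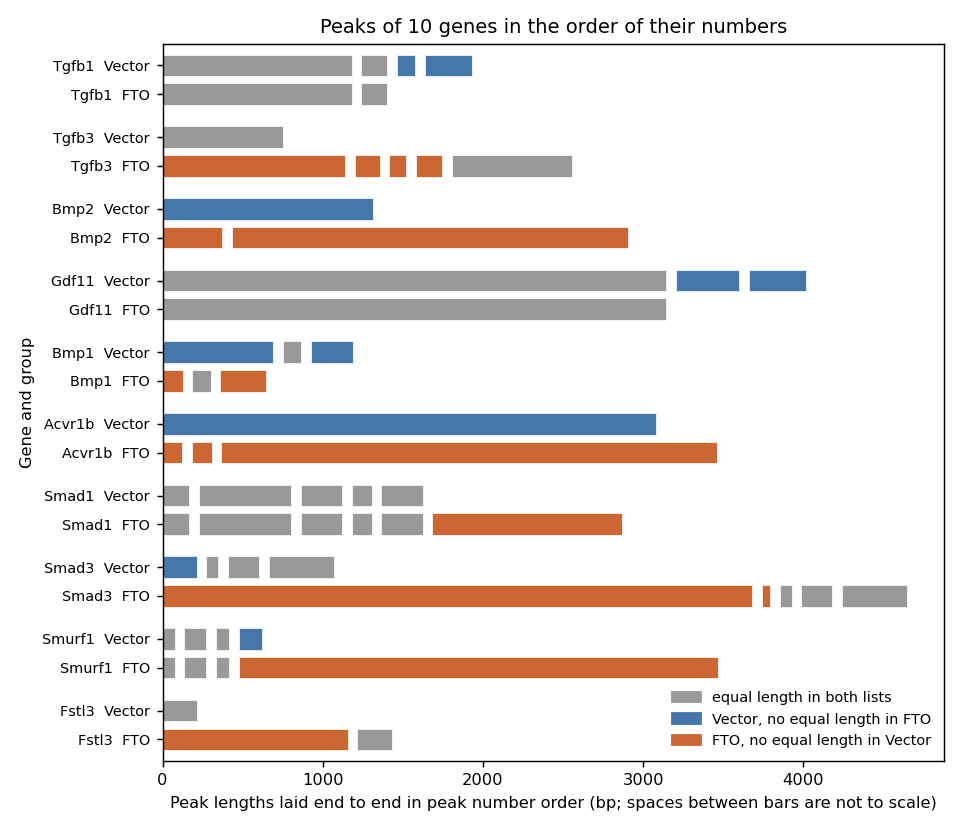
Peaks of 10 genes laid end to end in the order of their peak numbers, with bar length in bp (x axis) and a row for each gene and list (y axis); grey bars have an equal length in both lists, blue bars stand in the Vector list alone and orange bars in the FTO list alone. Long orange bars appear in rows that also hold grey ones for Smad3 (3681 bp), Smurf1 (2992 bp), Smad1 (1187 bp), Tgfb3 (1141 bp) and Fstl3 (1156 bp).

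The antagonists had few peaks. Grem1, a BMP antagonist, had a peak of 3671 bp in both lists and a second of 138 bp in FTO. Nog, or noggin, another BMP antagonist, had a peak of 1217 bp in the Vector list alone, and Chrd had none. Among the activin-binding proteins, Fst had 2 peaks in each list, with the peak of 231 bp shared. Fstl3 had a peak of 216 bp in both lists, and in FTO a peak of 1156 bp stood before it, which is 5.35 times the length of the Vector peak. Fstl1, a secreted glycoprotein of the same family, had a peak of 113 bp in the Vector list alone. Bmp1, which in spite of its name is a metalloprotease that trims procollagen, had 3 peaks in each list. They were 690, 114 and 262 bp long in Vector and 126, 114 and 285 bp in FTO, so that its longest peak was 0.413 times as long.

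In the nucleus, Ski had the same 3 peaks between 293 and 971 bp in both lists. Skil, which encodes the related co-repressor SnoN, had 4 and 3 peaks, and the homeobox co-repressor Tgif1 had 3 and 2. Their longest peaks, of 1146 and 1049 bp, were in both lists. The co-repressors were thus the group with more Vector than FTO peaks, 10 and 8, apart from the pair of Bmp1 and Fstl1 with 4 and 3. Among peaks of at least 300 bp the co-repressors had 1 more in FTO.

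Peaks in 1 list alone were found for 6 genes. Nog, Acvr2b and Fstl1 were listed for Vector alone, 8.11% of the 37 genes, against 16.4% of all genes. Bmpr1b, Tgfbr3 and Smad4 were listed for FTO alone, also 8.11%, against 9.57%. Each of the 6 had 1 peak, between 62 and 325 bp except for that of Nog.

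The lengths were then compared peak by peak. A peak was called common where both lists held it at an equal length on the same gene. There were 54 common peaks in the 44 genes, which left 30 Vector peaks (35.7%, 26.3% to 46.4%) and 35 FTO peaks (39.3%, 29.8% to 49.7%) without a partner. Over all genes the shares were 42.7% of the Vector peaks and 31.6% of the FTO peaks. The intervals take peaks as independent, though several can lie on 1 gene, and may be too narrow. Tgfb3 alone held 4 of the 35 FTO peaks. All lengths were the same for 5 of the 31 genes with peaks in both lists, namely Acvrl1, Eng, Smad2, Smad7 and Ski, which is 16.1%, against 28.4% of all such genes. In the 15 genes with at least 2 common peaks, these came in the same order in both lists in every case, and over all genes in 98.9% of 2677. A further 8 pairs in 7 genes differed in length by no more than 10%. They were the peaks already given for Gdf6, Acvr1 and Acvr1b, both of Bambi, 262 and 285 bp in Bmp1, 1903 and 1923 bp in Inhba, and 616 and 618 bp in Smad9.

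**Figure D4:**
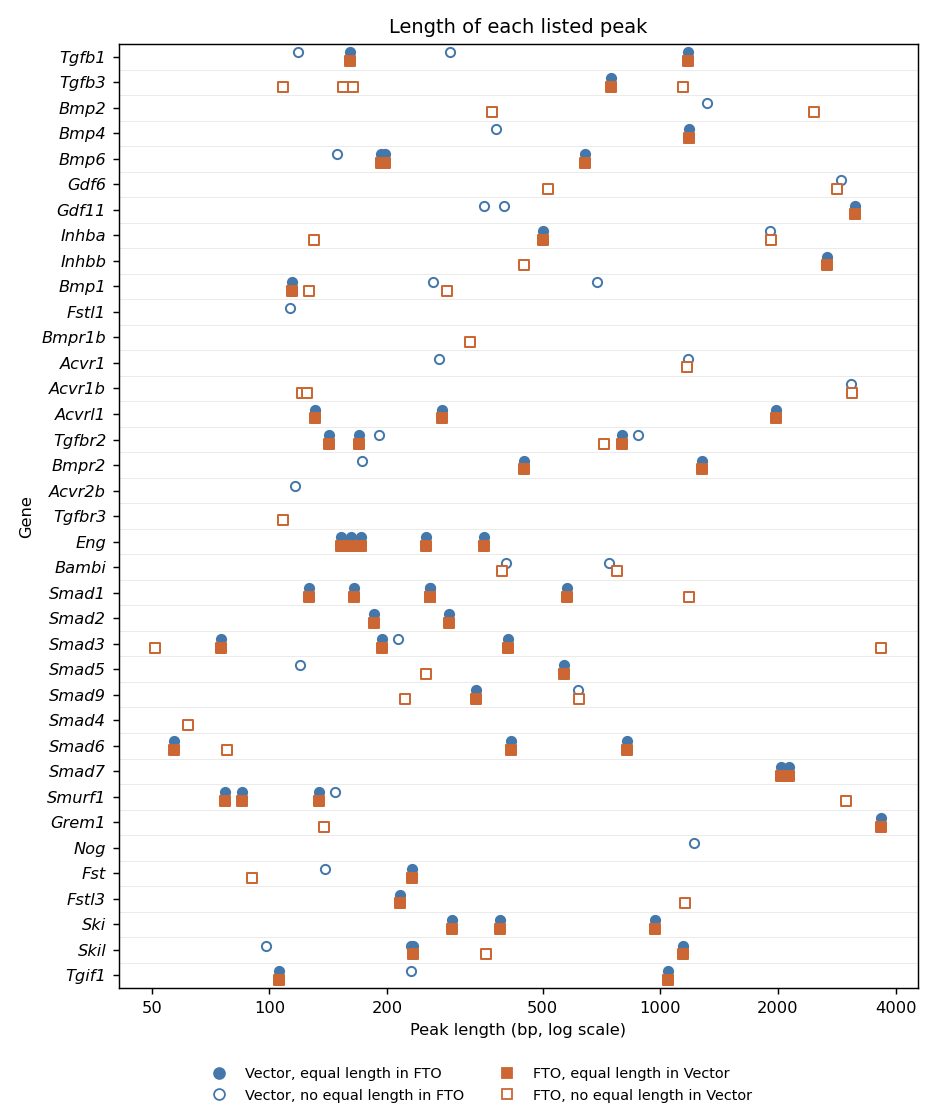
Length of every listed peak of the 37 genes (x axis, bp, log scale) by gene (y axis), with circles for Vector and squares for FTO, filled where the other list holds an equal length and open where it does not. Open squares beyond 1000 bp with no circle near them are seen for Tgfb3, Bmp2, Smad1, Smad3, Smurf1 and Fstl3.

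The median length of the peaks was 282 bp in the Vector and 293 bp in the FTO list, against 203 and 228 bp over all genes. Peaks of at least 1000 bp made up 17 of the 84 Vector peaks (20.2%, 13.0% to 30.0%) and 21 of the 89 FTO peaks (23.6%, 16.0% to 33.4%), against 14.2% and 16.7% of all peaks, both of which lie within the intervals. Of these long peaks, 11 were common. The others were 6 in Vector and 10 in FTO, of which 4 pairs, in Gdf6, Inhba, Acvr1 and Acvr1b, differed by no more than 10%. This left 2 long peaks to Vector, in Nog and Bmp2, and 6 to FTO. The longest peak was at least 1.5 times longer in the FTO list for 6 of the 31 genes in both lists (19.4%, 9.19% to 36.3%), namely Tgfb3, Bmp2, Smad1, Smad3, Smurf1 and Fstl3, against 6.84% of all such genes, which is below the interval. Without Smad3 and Smurf1 the share was 4 of 29 (13.8%, 5.50% to 30.6%), and the interval includes that of all genes. On the transcript with most peaks it was 5 of 31 (16.1%, 7.09% to 32.6%). It was 6 of 31 at a minimum of 100 bp, 5 of 30 at 200 bp (7.34% to 33.6%) and 4 of 26 at 300 bp (6.15% to 33.5%). The share of all genes under these settings was not computed. The longest peak was at least 1.5 times shorter for Bmp1 alone (3.23%, 0.572% to 16.2%), against 7.95%, which lies within the interval. Without Smad3 and Smurf1, the summed length was 3109 bp greater in FTO, where it was 9473 bp greater with them.

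Other genes of the pathway were taken from a list of 149, of which 82 had a peak. They had 253 Vector and 221 FTO peaks, or 87.4 per 100. Fewer FTO peaks were listed for 31 of them (37.8%), equal numbers for 32, and more for 19 (23.2%), beside 41.4% and 21.2% of all genes. The proteins that store and release latent TGF-beta in the matrix had 29 Vector and 19 FTO peaks. Of the latent TGF-beta binding proteins, Ltbp1 had 4 and 0 and Ltbp2 had 5 and 1, and Fbn2, a fibrillin to which they attach, had 2 and 0. Fbn1, another fibrillin, had 4 in each list. Of the 12 genes of this group with a peak, 6 had fewer, 3 as many and 3 more FTO peaks. The branch that does not use Smads had 59 and 46 peaks, with the cytoskeletal kinases Rock2 at 12 and 6 and Rock1 at 16 and 13, while Limk2, a kinase they activate, had 1 and 5. The genes listed as other antagonists had 10 and 15, of which Tll1, a protease related to Bmp1 and not an antagonist, had 2 and 4.

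Among the remaining pathway genes, Neo1, a co-receptor for BMPs and netrin receptor, had 3 Vector and 6 FTO peaks. Nedd4l, a ubiquitin ligase for activated Smads, had 4 and 1. Of the nuclear partners, Ncor1 had 23 and 19, Mecom had 6 and 2 and Runx2 had 0 and 2. Target genes of the pathway had 22 and 16 peaks, and Tgfbi, a matrix protein induced by TGF-beta, had 4 and 1, with the longest at 633 bp in Vector and 103 bp in FTO. Peaks were found for 12 of the 26 target genes, and Ccn2 and Acta2 were among those with none in either list.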

How the data were processed

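Each group had 1 m6A-IP and 1 input library of rat cardiac fibroblasts (4 libraries). According to the submitters' processing notes, cutadapt 1.9.3, HISAT2 2.0.4 and the rn6 build were used. Peak names carry the prefix MACS, and the settings of the caller are not given in the sources used here. The deposited lists, 1 per group, give a peak name, its length in bp (not normalized) and the Ensembl transcript and NCBI gene it was assigned to. Depth is unknown. Symbols came from the RefSeq GRCr8 table, which named 8258 of 8534 gene IDs and all 44 genes. Rows without a gene ID, 248 in Vector and 213 in FTO, stayed in the counts over all genes, with the transcript taken as the gene. Of these rows, 0 lay on a transcript of the 44 genes.

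Peaks were paired 1 to 1 by gene and equal length, and peak numbers gave the order of peaks within a gene. Since each group had 1 list, no test was made, and shares carry Wilson 95% intervals for counting error. Intervals for shares of peaks take the peaks of a gene as independent. Lengths were printed in full where peak numbers differed by 2 or more, peaks stood in 1 list alone, or the longest differed at least 1.5 times, and otherwise as counts and range with a few shared or nearly equal lengths added after the values were seen. Other pathway genes were named for a difference of 3 or more peaks, or 2 or more peaks in 1 list alone. A gene that met this rule is not reported here. Ccn2 and Acta2 were added after their values were seen. The genes and lists were chosen with earlier results of these data known. Alternatives were minimum lengths of 100, 200 and 300 bp, repeated lengths counted once, FTO counts multiplied by 1.19, other rules for partners, the transcript with most peaks, and leaving genes aside. The pairing was tested on simulated lists. Python 3.11.15, numpy 2.4.6, scipy 1.17.1 and matplotlib 3.10.9 were used.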

Additional observations from a re-analysis of the deposited data

How the results depend on the processing

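Of 454 values recomputed under alternatives, 361 were counted as kept, 90 as moved and 3 turned direction. For the 264 differences of single genes, a value in the same direction was counted as kept whatever its size. Tgfb3, with a difference of 4 peaks as reported and 1 at a minimum length of 200 bp, was thus counted as kept. The 7 genes without a peak could not move and were also counted as kept. The number of kept values is therefore not a measure of stability. At a minimum length of 200 bp there were 54 Vector and 56 FTO peaks (difference 2), with medians of 571.5 and 630.5 bp. Of the 33 genes left with a peak, 7 had fewer, 16 as many and 10 more in FTO, 1 had peaks in Vector alone, and 18 other pathway genes had fewer FTO peaks. Over all genes, 27.5% had fewer and 18.6% more at that length. With peaks of at least 100 bp, the difference was also 2, and 12 genes had more and 12 fewer, against 21.0% and 38.5% of all genes. At 300 bp, chosen after seeing the data, there were 39 and 44 peaks with medians of 820 and 895.5 bp. Of the 31 genes left with a peak, 4 had fewer, 17 as many and 10 more in FTO. Over all genes, 22.6% had fewer and 16.7% more at that length. Of the other pathway genes, 13 had fewer and 10 more. Skil and the co-repressors then had 1 more FTO than Vector peak, the opposite of their direction with all peaks. FTO counts scaled to equal list sizes gave a difference of 22.3 peaks, where 36.2% of all genes had fewer and 29.8% more. Without Tgfb3, chosen after seeing the data, the difference was 1, and the ligands had 2 fewer FTO than Vector peaks (difference -2) where they had 2 more with it. Without Smad3 and Smurf1, also chosen then, the summed length differed by 3109 bp. When any peak on the gene could serve as partner, 16.7% of Vector and 21.3% of FTO peaks had none, and a tolerance of 10% left 26.2% of Vector peaks. The cause of these shifts, beyond the construction of each alternative, was not tested. No paired analysis was possible because the study made 1 m6A-IP and 1 input library per group. Without depth, a peak missing from a list cannot be told apart from one under the caller's limit.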

Other observations

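Peaks without a partner of equal length were longer in the FTO than in the Vector list, as a description of these lists. For the TGF-beta and BMP genes the medians were 358 bp in FTO and 281 bp in Vector, and over all genes they were 294 and 191 bp. Of these peaks, 28.6% in FTO and 20.0% in Vector were at least 1000 bp long, against 24.4% and 15.8% over all genes. Among the cardiomyocyte markers, Myh6 had 7 peaks in each list, and Myh7, the slow myosin heavy chain, had 8 in Vector and 5 in FTO. Tnnt2, cardiac troponin T, had 4 and 7, and Ryr2 had 2 and 5. Tnni3 had 1 in each list, and Actn2 had 1 and 0.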
